A study of Rattus norvegicus with 10 samples.

Results

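The MRAK lncRNAs are rat long noncoding RNAs that the array's makers named for their orthology to mouse cDNAs with AK accessions. They were taken as every noncontrol probe whose systematic name starts with MRAK, and there were 3588 of them among 24684 noncontrol probes, or 38.5% of the 9319 lncRNA probes. Each MRAK RNA had 1 probe, and each probe was printed as 3 spots. RNA came from the lumbar enlargement of male Sprague-Dawley rats of 240 to 260 g. The morphine tolerance (MT) group, rats 1 to 5, received 10 μg of intrathecal morphine in 10 μl, 2 times a day for 7 days. The normal saline (NS) group, rats 6 to 10, received 10 μl of saline on the same schedule. A further morning injection of morphine or saline followed on the next day, and the tissue was taken soon after it. MT minus NS therefore includes a recent dose as well as the repeated ones, and their parts were not tested. Each rat had 1 one-colour array, so the unit of replication was the rat and the number of rats limits the precision. The tissue is whole spinal cord with all of its cell types, in which fewer cells of a type and less RNA per cell cannot be told apart.

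Long noncoding RNAs are transcripts that are not translated into protein. Some act on chromatin or on neighbouring genes, and others bind microRNAs and thereby compete with mRNAs for them, which is the competing endogenous RNA (ceRNA) model. Most are named only by a database entry and have no known role, and this holds for nearly all MRAK RNAs. The exceptions here are MRAK159688, also called Fos downstream transcript (FosDT) and described as a partner of REST corepressors, and MRAK150340 and MRAK161211, for which the study's target prediction proposed binding of miR-219b. The mature sequence of that microRNA is shown because that prediction names it for both RNAs, and no MRAK sequence was searched for a match to it; it lies at chr3:33516519-33516540 on the plus strand of GRCr8 (RefSeq), is 22 nt long, and has its seed, bases 2 to 8, in capitals.
rno-miR-219b: aGAUGUCCagccacaauucucg
MicroRNAs were not measured on these arrays.

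Arrays that shared a scan time in the scanner record are called a slide here. Slide 1 held MT 1, 3, 4 and 5, slide 2 held MT 2 and NS 6, 7 and 10, and slide 3, scanned on another day, held NS 8 and NS 9 alone. The median intensity of the MRAK probes before normalization was 33.4 to 44.8 in MT rats, 37.5 to 47.4 in NS rats 6, 7 and 10, and 14.4 and 10.1 in NS 8 and NS 9. After normalization the faintest log2 intensity that counted as well above background was 2.48 to 2.77 on slides 1 and 2 but 4.25 and 4.28 on slide 3. Oligodendrocyte, astrocyte and neuron markers such as Mbp, Gfap and Tubb3 were bright. Not every marker of these lists was, as the neuron marker Syt1 read 5.43 to 6.22 over the 10 rats. The neuron markers Snap25 and Chat were not matched. Among the marker lists examined, the neutrophil list was the one whose rats did not overlap between groups: 3 of its 6 genes were matched and kept (S100a8, Camp and Ngp), and their mean log2 intensity was 5.37 to 5.91 in MT and 4.40 to 4.98 in NS rats. S100a8 and Camp each separated the groups, whereas the dim Ngp overlapped, with 2.81 to 4.16 in MT and 2.56 to 3.67 in NS rats. S100a9, Mpo and Elane were not matched, and the part of neutrophils in the MRAK differences was not tested.

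Most MRAK RNAs were detectable in the lumbar cord, but less often than mRNAs. A probe was called detected on an array when over 50% of its spots carried the scanner's mark for a signal well above background. In MT rats 1 to 5 the detected share of the MRAK probes was 74.7%, 78.0%, 78.2%, 75% and 75.4%. In NS rats 6 to 10 it was 72.0%, 70.8%, 52.8%, 47.0% and 74.2%. All MT rats lay above all NS rats, and NS 8 and NS 9 lay far below the others. Within slide 2, MT 2 had 2798 detected MRAK probes and NS 6, 7 and 10 had 2584, 2540 and 2662. The mRNA probes showed the same order, so that it was not particular to MRAK probes. Their share was 88% to 90% in MT rats, 85.7% to 87.2% in NS 6, 7 and 10, and 76.6% and 72.8% on NS 8 and NS 9.

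**Figure D1:**
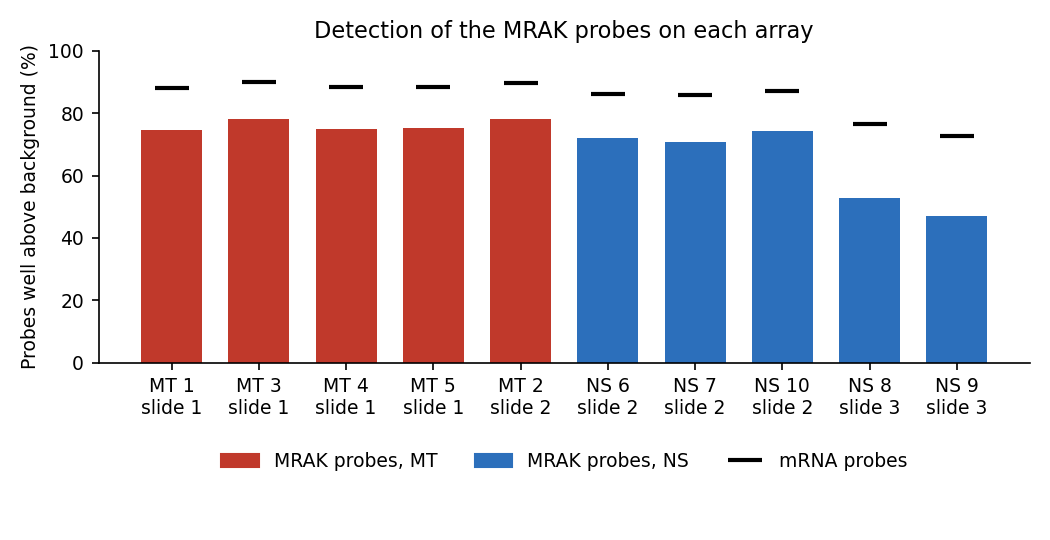
Percent of the 3588 MRAK probes (bars, MT red and NS blue) and of the mRNA probes (black dashes) that were well above background on each array, ordered by slide. NS 8 and NS 9 on slide 3 stand at 52.8% and 47.0% for MRAK probes, below the 70.8% to 78.2% of the other arrays.

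Over the 10 arrays, 1681 MRAK probes (46.9%) were detected on every array, 964 on 5 to 9 arrays, 316 on 1 to 4 arrays and 627 (17.5%) on none. Over all noncontrol probes 63.0% were detected on every array and 10.3% on none. Of the MRAK probes, 502 were detected on all 8 arrays of slides 1 and 2 and on neither array of slide 3. A probe was kept for testing if it was detected on at least 5 arrays, which left 2645 MRAK RNAs (73.7%) and 943 not kept. The kept share was 73.0% for the MRuc names, 80.6% for the XR_ names, 48.6% for the ultraconserved uc. names and 87.4% for mRNAs.

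Detection was uneven between groups on the whole array, where NS 8 and NS 9 detected 67.9% and 63.2% of all noncontrol probes and the other arrays 80.2% to 85.7%. More MT than NS arrays detected 1188 MRAK probes (33.1%, against 24.3% of all noncontrol probes), more NS than MT arrays detected 38 (1.06%, against 1.16%), and 2362 were equal. No MRAK probe was detected on all NS arrays and no MT array, whereas 16 were detected on all 5 MT arrays and no NS array (0.446%, against 0.389%). These 16 passed the filter through the MT arrays alone, so that their direction was set by how they were picked, and they were faint, with MT means of 3.13 to 4.26 on the log2 scale. A lower bound on the fold was taken on the quantile-normalized values. It set the MT mean against the NS mean, with NS values below the faintest level well above background on their array raised to that level. The bound was above 1 for 5 of the 16, at 1.05-fold to 1.55-fold, and the others had no bound.

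MRAK probes were dim, as were those of the other lncRNA names. The mean log2 intensity over the NS rats had a median of 6.14 over the 2645 kept MRAK RNAs, with quartiles of 4.43 and 8.66, against a median of 9.01 for mRNAs and 8.06 for all RNAs tested. The same median was 6.13 for the MRuc names, 7.33 for XR_, 4.60 for uc. and 6.58 for other lncRNAs. The 10th and 90th percentiles of MRAK RNAs were 3.50 and 10.99. Probe brightness also depends on probe sequence, so these are distributions of intensity and not of transcript number.

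**Figure D2:**
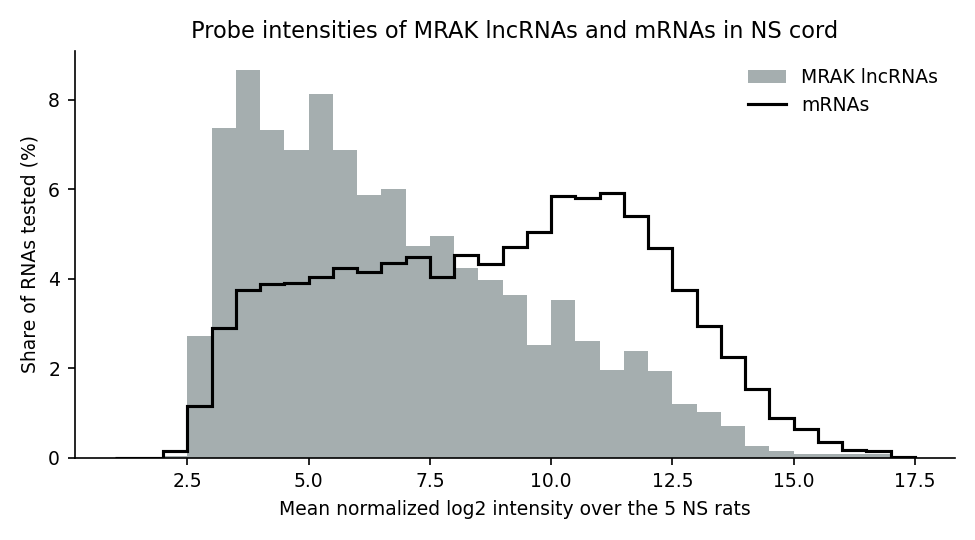
Share of tested RNAs (percent, vertical axis) by mean normalized log2 intensity over the 5 NS rats (horizontal axis, bins of 0.5) for MRAK lncRNAs (grey) and mRNAs (black line). The MRAK distribution has its bulk at low intensity, with a median of 6.14 against 9.01 for mRNAs.

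A few MRAK probes were among the bright spots of the array. The 10 brightest were MRAK148606, MRAK149123, MRAK154943, MRAK165779, MRAK150706, MRAK005091, MRAK083095, MRAK078618, MRAK079934 and MRAK004359, with NS means of 14.91 to 16.60. For MRAK148606 the NS values were 16.61, 16.55, 16.59, 16.64 and 16.60, and the MT values were 16.72, 16.55, 16.81, 16.36 and 16.71. The MT range enclosed the NS range. Of the 10, 0 passed an adjusted p of 0.05 or the study's fold criteria, and 5 had both slide 3 arrays above or below all other arrays. MRAK154943 was one of these, with 15.69 and 15.82 in NS 8 and NS 9 and 16.62 to 16.78 in the other 8 rats.

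Noise followed intensity. Divided by mean intensity into 3 sets of nearly equal size, the kept MRAK RNAs had a median SD between spots of 0.24, 0.10 and 0.05 from the dimmest set to the brightest. The median SD between NS rats was 0.46, 0.28 and 0.13, and 0.20, 0.15 and 0.09 among the 3 NS rats of slide 2. Between MT rats it was 0.21, 0.17 and 0.14. In all 3 sets the NS spread over both slides exceeded that within slide 2.

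That gap was common. For 1242 of the 2645 kept MRAK RNAs (47.0%) NS 8 and NS 9 both lay outside the range of the other 8 arrays, 606 above and 636 below, against 40.5% of all RNAs tested. The 3 MRAK RNAs with the largest NS spread were MRAK042323, MRAK158075 and MRAK015320. MRAK042323 read 13.13, 14.33 and 14.00 in NS 6, 7 and 10 but 10.34 and 9.68 in NS 8 and NS 9, with 12.97 to 13.74 in MT rats. MRAK158075 read 9.46 to 9.67 in NS 6, 7 and 10, 6.20 and 6.03 in NS 8 and NS 9, and 9.29 to 9.93 in MT rats. MRAK015320 read 14.75 to 15.47 in NS 6, 7 and 10, 12.86 and 11.58 in NS 8 and NS 9, and 14.46 to 15.16 in MT rats. In all 3 the MT rats and the slide 2 NS rats overlapped and the slide 3 rats stood alone.

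MT rats also varied among themselves for some MRAK RNAs. The largest MT spreads were those of MRAK015141, MRAK021255 and MRAK078136. MRAK015141 read 8.12, 6.39, 9.01, 6.29 and 6.77 in MT rats 1 to 5 and 6.92 to 8.54 in NS rats. MRAK021255 read 6.51, 7.40, 4.71, 7.37 and 7.56 in MT rats and 4.96 to 6.65 in NS rats. Rat MT 3 was the highest for the first and the lowest for the second. MRAK078136 read 6.89, 6.41, 7.75, 4.72 and 7.27 in MT rats, with MT 4 the lowest, and 6.32 to 8.49 in NS rats. The groups overlapped for all 3.

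The comparison of MT with NS asked which MRAK RNAs differ in the cord of morphine-tolerant rats, taken soon after a last injection. As a class their median lay near that of all RNAs. The median log2 difference, MT minus NS, was 0.01 over the 2645 MRAK RNAs and 0 over all 20286 RNAs tested (0.17 and 0.07 with arrays scaled to their 75th percentile), with 1358 MRAK RNAs higher and 1287 lower and a range of −0.37 to 0.55 from the 5th to the 95th percentile. An unadjusted P below 0.05 was reached by 427 (16.1%), against 16.4% of all RNAs tested.

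Past a Benjamini-Hochberg adjusted p of 0.05 over all RNAs tested (limma), 2 MRAK RNAs were higher in MT, or 0.0756% against 0.0739% of all RNAs tested, and 6 were lower, or 0.227% against 0.123%. The study's criteria were a fold above 1.5, read here as linear, with an unadjusted P below 0.05. By these, 50 MRAK RNAs were higher (1.89%, against 1.74% of all RNAs tested) and 28 were lower (1.06%, against 0.996%). With arrays scaled to their 75th percentile in place of quantile normalization, 116 were higher and 10 lower. The higher share of these calls went from 64.1% to 92.1%. Over all RNAs tested it went the same way, from 63.6% to 86.3% (708 higher and 112 lower). The MT and NS rats did not overlap for 53 higher MRAK RNAs (2.00%, against 2.31%) and 98 lower ones (3.71%, against 3.29%). Each of these shares was near its background, apart from the 6 lower at the adjusted p, a number of RNAs too small to weigh. No adjusted-p call was left with slide as a random block or without slide 3, nor without MT 1, NS 8 or NS 9 alone. The first 2 gave 0 calls (limma), with P below 0.05 for 194 and 534 MRAK RNAs. Slide 1 held MT rats alone and slide 3 NS rats alone. With slide as a fixed block the difference therefore came from slide 2, where MT 2 faced NS 6, 7 and 10. For RNAs with complete values it equals the difference within slide 2.

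The largest of the 6 lower RNAs was MRAK150340. Its log2 intensity was 8.08, 8.50, 7.68, 8.34 and 8.51 in MT rats 1 to 5 and 9.39, 9.08, 9.46, 9.30 and 9.11 in NS rats 6 to 10. No MT rat reached the NS range, and the 2 slide 3 rats lay within or just above the range of the other NS rats. The difference was −1.05 (SE 0.16, limma adjusted p 0.0463), a 2.07-fold decrease. In slide 2 alone, MT 2 lay 0.70 below the mean of the 3 NS rats. The fold and P criteria were passed in all 21 alternatives, in which the difference ran from −1.12 to −0.70, the latter being this slide 2 value. The adjusted p was not below 0.05 in all of them. It was 0.165 without slide 3 and 0.372 with a random slide block (limma).

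MRAK037188 was a dim RNA with a comparable decrease. It read 3.97, 4.32, 3.87, 3.95 and 4.53 in MT rats and 4.96, 5.02, 5.34, 5.22 and 5.07 in NS rats. The groups did not overlap, although all values lay near the lower end of what the arrays measured. The difference was −0.99 (SE 0.14, limma adjusted p 0.0353), and after normexp background correction it was −0.30.

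MRAK077287 had the smallest adjusted p of the class. It read 6.66, 6.68, 6.42, 6.97 and 6.62 in MT rats and 7.46, 7.39, 7.65, 7.63 and 7.52 in NS rats. All NS rats lay within a narrow band above all MT rats. The difference was −0.86 (SE 0.10, limma adjusted p 0.0215), and within slide 2 it was −0.78.

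MRAK014088 fell as well. It read 8.78, 8.64, 8.70, 8.85 and 8.38 in MT rats and 9.46, 9.92, 9.42, 9.30 and 9.41 in NS rats. NS 7 was the highest, and the 2 slide 3 rats were not set apart from NS 6 and NS 10. The difference was −0.83 (SE 0.13, limma adjusted p 0.0463), −0.93 without slide 3 and −0.96 within slide 2.

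The other 2 lower RNAs had smaller differences. MRAK041309 read 5.48 to 5.74 in MT and 6.00 to 6.46 in NS rats, with NS 8 and NS 9 the highest. Its difference was −0.62 (SE 0.10, limma adjusted p 0.0451), and −0.51 without slide 3, which is below the study's fold. MRAK086865 read 7.69 to 8.06 in MT and 8.26 to 8.45 in NS rats, a difference of −0.50 (SE 0.08, limma adjusted p 0.0467). The latter, at 1.41-fold, was below the study's fold.

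The 2 higher RNAs differed in how well they were measured. MRAK138235 read 4.51, 3.96, 4.37, 4.22 and 4.26 in MT rats and 2.94, 3.19, 2.93, 3.62 and 3.47 in NS rats, and it was not well above background on any NS array. It passed the detection filter through the MT arrays alone, which favoured a higher MT value. By the bound described above, which holds for quantile-normalized values only, MRAK138235 was at least 1.55-fold higher in MT. Its measured means were 4.26 and 3.23, with a limma adjusted p of 0.0451. After normexp background correction its log2 difference was 0.26. The limma adjusted p was 0.105 with 75th percentile scaling and 0.112 in the deposited table. MRAK043097 read 7.04, 6.90, 7.06, 6.96 and 6.98 in MT rats and 6.59, 6.33, 6.49, 6.55 and 6.63 in NS rats, and it was detected on all 10 arrays. Its difference was 0.47 (SE 0.07, limma adjusted p 0.0451), a 1.38-fold increase below the study's fold. The groups did not overlap for any of the 8 RNAs past the adjusted p. This alone sets the 2-sided exact permutation p at 0.00794, the smallest that 5 rats against 5 allow. The 8 were picked on these same values, so it is no separate support.

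**Figure D3:**
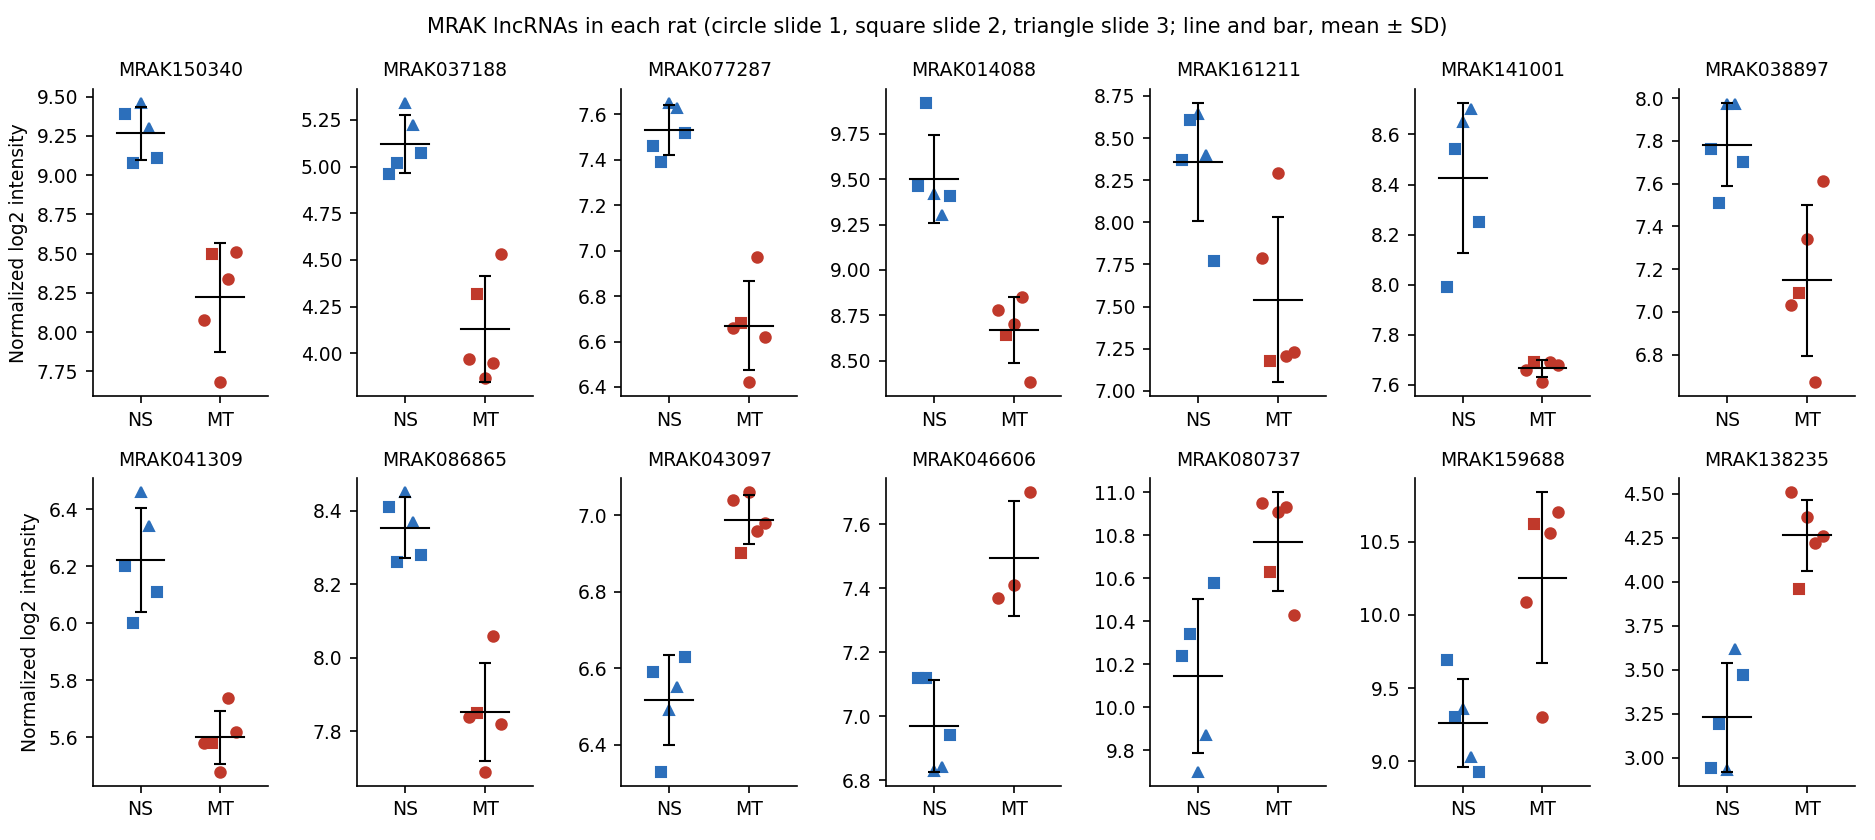
Normalized log2 intensity (vertical axes, scaled per panel and not from 0) of 14 MRAK lncRNAs in NS (blue) and MT (red) rats, with lines and bars for the mean ± SD; circles are slide 1, squares slide 2 and triangles slide 3. The 8 RNAs past the adjusted p are without overlap, as MRAK150340 shows with 7.68 to 8.51 in MT and 9.08 to 9.46 in NS rats, whereas MRAK159688, MRAK161211, MRAK080737 and MRAK038897 overlap.

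Of the 9 MRAK RNAs that the study chose for RT-qPCR from its array results, 3 are described above (MRAK150340, MRAK077287 and MRAK014088) and the other 6 had adjusted p-values above 0.05. Since they were chosen on these arrays, their array differences are not independent evidence. By RT-qPCR the study reported significant differences in the array's direction for MRAK150340, MRAK159688, MRAK161211, MRAK141001 and MRAK038897. For MRAK077287, MRAK014088, MRAK080737 and MRAK046606 it reported the same trend without significance. MRAK159688 (FosDT) read 10.09, 10.62, 9.30, 10.56 and 10.70 in MT rats and 9.69, 9.30, 9.36, 9.03 and 8.93 in NS rats. MT 3 lay inside the NS range and the other 4 MT rats lay above it. The difference was 0.99 (SE 0.27, limma adjusted p 0.146; 2-sided exact permutation p 0.0317), 0.95 without slide 3 and 1.31 within slide 2.

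MRAK161211 was the mirror case among the lower RNAs. It read 7.79, 7.18, 8.29, 7.21 and 7.23 in MT rats and 8.37, 8.61, 8.64, 8.40 and 7.77 in NS rats. MT 3 was again the rat closest to the NS group, and MT 1 and NS 10 were nearly equal. The difference was −0.82 (SE 0.25, limma adjusted p 0.167). MRAK159688 and MRAK161211, with MRAK150340 and MRAK014088, were the 4 MRAK RNAs past the fold and P criteria in every one of the 21 alternatives. The alternatives are not separate checks. Taking each probe on its own repeats the main fit, since each MRAK RNA has 1 probe. Other filters leave the log2 differences of these 4 RNAs as they were.

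MRAK141001 varied little within the MT group. It read 7.66, 7.69, 7.61, 7.69 and 7.68 in MT rats and 7.99, 8.54, 8.65, 8.70 and 8.25 in NS rats. The groups did not overlap, and the 2 slide 3 rats were the highest. The difference was −0.76 (SE 0.13, limma adjusted p 0.0546), and −0.57 with slide as a fixed block.

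MRAK038897, MRAK080737 and MRAK046606 were less clear. MRAK038897 read 6.67 to 7.61 in MT and 7.51 to 7.97 in NS rats, a difference of −0.63 (SE 0.17, limma adjusted p 0.142). MRAK080737 read 10.95, 10.63, 10.91, 10.93 and 10.43 in MT rats and 10.24, 10.34, 9.70, 9.87 and 10.58 in NS rats, with the 2 slide 3 rats lowest. Its difference of 0.62 (SE 0.18, limma adjusted p 0.157) was 0.38 without slide 3. MRAK046606 had values in 3 MT rats, 7.37, 7.41 and 7.70, because all of its spots were marked as outliers in MT 2 and MT 4, and read 6.83 to 7.12 in NS rats. The fit on those 8 rats gave 0.52 (SE 0.12, limma adjusted p 0.121), and the fold of 1.44 did not pass the study's criteria. With outlier spots kept, or in the deposited table, all 10 rats had a value and the difference was 1.24 (limma adjusted p 0.178 and 0.172, in a range of 0.0747 to 0.613 over all alternatives).

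The 78 MRAK RNAs past the study's criteria were mostly modest in size. Among those with a value in all 10 rats the fold ran from 1.5 to 2.54 with a median of 1.61. Their adjusted p-values ran from 0.0215 to 0.301, 25 had no overlap between the groups (10 higher and 15 lower), and 40 were detected on all 10 arrays. MRAK165072, at a log2 difference of 1.35, had the largest fold of this set; it was detected on 4 MT arrays and 1 NS array, and its groups overlapped. MRAK051578, at 1.77, was larger but rested on values in 2 MT and 2 NS rats. Both were picked out after their values were seen.

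Higher and lower RNAs of this set differed in brightness. Of the 50 higher, 31 lay in the dimmest of the 3 intensity sets, 13 in the middle and 6 in the brightest, and 16 were detected on all 10 arrays. Of the 28 lower, the counts were 6, 15 and 7, and 24 were detected on all 10 arrays. Among the 1681 MRAK RNAs detected on every array, 16 were higher and 24 lower by the criteria, and the median log2 difference was −0.04. Among the 964 detected on 5 to 9 arrays, 34 were higher and 4 lower, with a median of 0.14. Of these 964, 938 were detected on more MT than NS arrays. They passed the detection filter mostly through the MT arrays, which favoured a higher MT value. The excess of higher RNAs among them was thus set in part by the filter and is not a result about these RNAs.

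Slide 3 moved with these calls. Both slide 3 arrays lay below the other 8 for 33 of the 50 higher RNAs and above them for 21 of the 28 lower ones. NS 8 and NS 9 are among the NS rats by which these RNAs were picked. The side on which they lie, and smaller differences without them, were therefore set in part by the picking. Without slide 3 the median log2 difference of the 50 went from 0.72 to 0.38, and that of the 28 from −0.67 to −0.53. A fold above 1.5 in the same direction was kept by 12 of the 50 and 10 of the 28, and the full criteria by 10 and 10. Within slide 2, where MT 2 faced NS 6, 7 and 10, the median was 0.30 for the 50 and −0.57 for the 28, and the sign was the same for 42 of 50 and 28 of 28, against 1701 of all 2645 kept MRAK RNAs. Slide 2 has 1 MT rat, and its 4 rats also belong to the full comparison by which these RNAs were picked, so the shared signs are no separate check. A fit with slide as a fixed block takes its difference from the same 4 rats and is no separate check either.

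**Figure D4:**
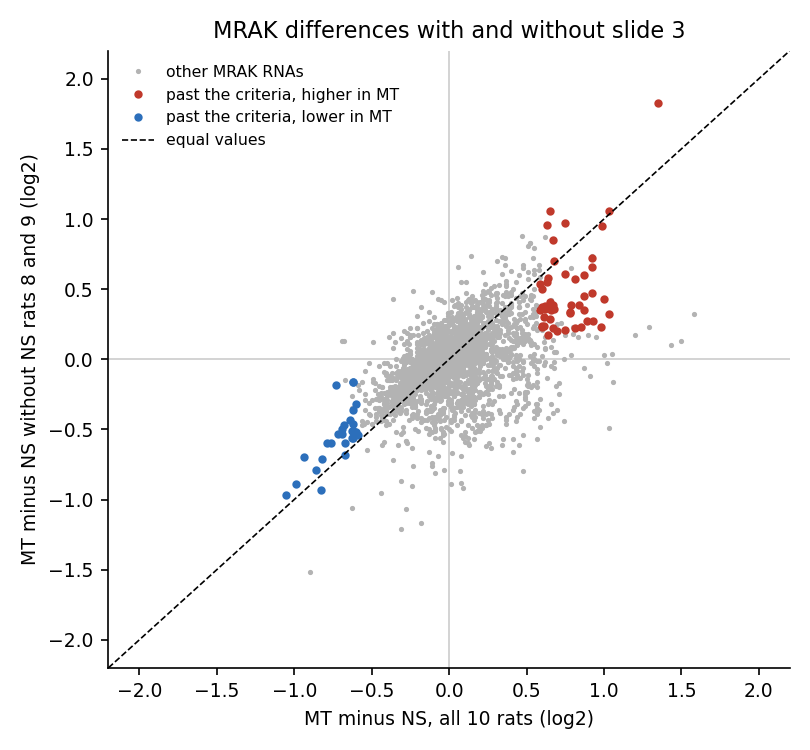
Log2 difference, MT minus NS, of each kept MRAK RNA over all 10 rats (horizontal axis) and without NS 8 and NS 9 of slide 3 (vertical axis), with RNAs past the fold and P criteria higher in MT in red and lower in blue; the dashed line marks equal values. Most red points lie below the line, their median going from 0.72 to 0.38, and blue points lie nearer to it, from −0.67 to −0.53.

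The largest increases without overlap show what this means for single RNAs. After MRAK138235 they were MRAK045282, MRAK013672, MRAK158420, MRAK136710 and MRAK085072, with log2 differences of 1.03, 0.87, 0.87, 0.85 and 0.84 and limma adjusted p-values of 0.124 to 0.276. MRAK045282 read 3.51 to 4.04 in MT rats, 3.49, 3.42 and 3.51 in NS 6, 7 and 10, and 1.66 and 1.75 in NS 8 and NS 9. MRAK013672, the one bright RNA of these, read 11.24 to 11.48 in MT rats, 10.96, 11.07 and 10.95 in NS 6, 7 and 10, and 9.59 and 9.78 in NS 8 and NS 9. MRAK136710 read 4.74 to 5.07 in MT rats, 4.71, 4.67 and 4.67 in NS 6, 7 and 10, and 3.12 and 3.11 in NS 8 and NS 9.

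In these 3 the NS rats of slide 2 came close to the MT range, and the differences without slide 3 were 0.32, 0.35 and 0.23. MRAK085072 followed the same order, with 4.09 to 4.43 in MT rats, 3.67 to 3.95 in NS 6, 7 and 10, and 2.80 and 2.62 in NS 8 and NS 9. MRAK158420 read 3.85 to 4.36 in MT rats and 3.55, 3.43, 3.25, 2.37 and 3.51 in NS rats, and its difference was 0.60 without slide 3. For MRAK045282, MRAK136710, MRAK085072 and MRAK158420 the NS 8 and NS 9 values were not well above background. They lay below the faintest such intensity on those arrays, 4.25 and 4.28. The size of their gap to slide 3 is therefore not a measured one.

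The 6 largest decreases without overlap were MRAK150340, MRAK037188, MRAK077287, MRAK014088, MRAK141001 and MRAK051195. MRAK051195 read 6.16 to 6.30 in MT rats and 7.02, 6.67, 7.26, 7.12 and 6.67 in NS rats. Its difference was −0.69 (SE 0.12, limma adjusted p 0.0582), and −0.53 without slide 3. For these 6 RNAs the difference without slide 3 was −0.97, −0.89, −0.79, −0.93, −0.60 and −0.53.

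Protein-coding genes that the study linked to these RNAs were measured on the same arrays. Fos, an immediate early gene on chromosome 6 of GRCr8 (110852188 to 110855054), is the gene after which FosDT is named. Its log2 intensity was 8.00, 8.53, 7.47, 8.39 and 8.69 in MT rats and 7.52, 7.17, 7.97, 7.70 and 6.95 in NS rats. MT 3 had the lowest Fos of its group, as it had the lowest MRAK159688. The group difference of Fos was 0.75 (SE 0.26, limma adjusted p 0.211). The tissue was taken soon after a last injection, whose part in the Fos and MRAK159688 differences was not tested.

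Across the 10 rats MRAK159688 and Fos varied together, with Pearson r 0.89 (permutation p 0.00101, adjusted 0.00404) and Spearman rho 0.89 (permutation p 0.00121, adjusted 0.00422). Without MT 5 and MT 2, the rats farthest from the median of MRAK159688, r was 0.78, and after subtraction of group means it was 0.78. After subtraction of slide means r was 0.99, and it was 0.99 without slide 3; a value for each slide on its own was not computed, with 4, 4 and 2 rats. In all, 4 relations of this kind were computed, and adjusted values are over the 4.

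**Figure D5:**
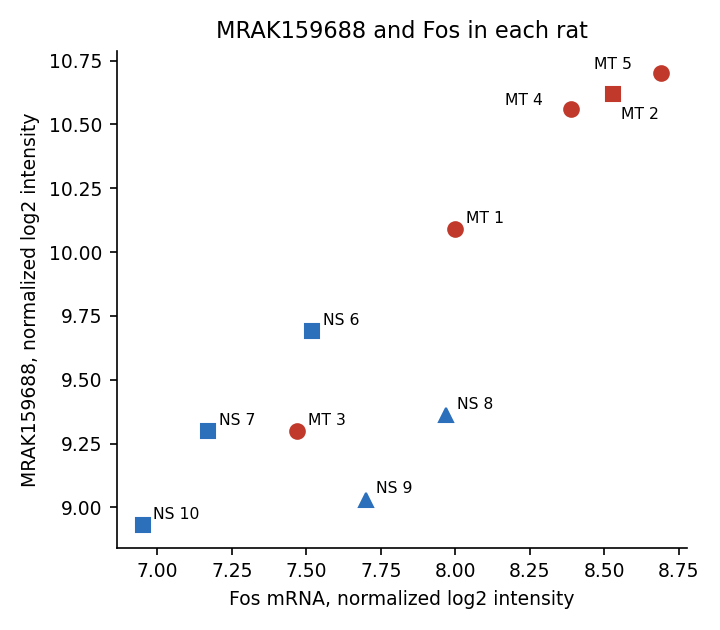
Normalized log2 intensity of Fos mRNA (horizontal axis) and MRAK159688 (vertical axis) in each rat, MT red and NS blue, circles slide 1, squares slide 2 and triangles slide 3. Rats with more Fos signal had more MRAK159688 signal (r 0.89), and MT 3 lies among the NS rats.

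Rest, the transcriptional repressor whose corepressors FosDT is described to bind, read 4.62 to 5.66 in MT and 5.19 to 7.03 in NS rats, a difference of −0.69 (SE 0.35, limma adjusted p 0.355). Its correlation with MRAK159688 was r −0.57 (permutation p 0.0856, adjusted 0.114) and rho −0.55 (permutation p 0.107, adjusted 0.143), and r was −0.16 without MT 5 and MT 2, −0.29 after subtraction of group means and −0.49 after subtraction of slide means. The 3 transcripts kept for Oprm1, the μ opioid receptor, had differences of −0.37, −0.08 and −0.37, none past an adjusted p of 0.05. NS 8 and NS 9 were the highest rats for the first and the third, whose differences without slide 3 turned to 0.10 and 0.25, while that of the second was −0.21. Rcor1 and Sin3a were not matched on the array.

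For the miR-219b prediction, Tollip, an inhibitor of Toll-like receptor signalling, read 11.90 to 12.19 in MT and 12.09 to 12.43 in NS rats, a difference of −0.17 (SE 0.09, limma adjusted p 0.401) that was −0.04 without slide 3. Ubqln4, a ubiquitin-binding shuttle protein, read 11.38 to 11.51 in MT and 11.08 to 11.53 in NS rats, a difference of 0.16 (SE 0.08, limma adjusted p 0.379) that was 0.07 without slide 3. NS 8 and NS 9 had the highest Tollip (12.43 and 12.42) and the lowest Ubqln4 (11.08 and 11.22) of all rats. Over the 10 rats MRAK161211 correlated with Tollip at r 0.32 (permutation p 0.378, adjusted 0.378) and rho 0.32 (permutation p 0.367, adjusted 0.367), and at r 0.25 without MT 2 and MT 4. The sign of this r turned after subtraction of group means (−0.16) or slide means (−0.51) and without slide 3 (−0.36). With Ubqln4 it correlated at r −0.77 (permutation p 0.00889, adjusted 0.0178) and rho −0.87 (permutation p 0.00211, adjusted 0.00422). Without MT 2 and MT 4 that r was −0.73, after subtraction of group means it was −0.61, and it was −0.72 both after subtraction of slide means and without slide 3. Rats with lower MRAK161211 thus had higher Ubqln4, within a Ubqln4 range of less than 1 log2 unit.

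Usp13, a deubiquitinase predicted to be joined to MRAK161211 through miR-133, read 11.42 to 12.64 in MT rats, 12.36 to 12.52 in NS 6, 7 and 10, and 8.59 and 9.54 in NS 8 and NS 9. Its difference was 0.73 (SE 0.78, limma adjusted p 0.659). No correlation was computed for Usp13, whose slide 3 rats form a separate cluster, or for MRAK150340, whose groups do.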

How the data were processed

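Total RNA of 10 rats was hybridized to the Arraystar rat lncRNA array, version V1.0. For each array the authors deposited background-subtracted intensity per spot, with median spot and background intensity and other flags, from Agilent Feature Extraction 11.0.1.1; depth does not apply. The authors also deposited a table of quantile-normalized log2 values made with GeneSpring. The design was annotated on rn4, and no probe sequences or MRAK coordinates were used here.

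Intensities were set to at least 1 (the lowest was 1.71), log2 values were quantile normalized, outlier spots (2.05% of MRAK spot values) were left out, and spots of a probe and probes of an RNA were averaged. Of the kept MRAK RNAs, 10 lacked a value on at least 1 array. No MRAK spot was saturated. Probes detected on at least 5 arrays were kept. MT minus NS was fitted with limma 3.58.1 (R 4.3.3 with jsonlite 2.0.0 and the data.table package, release 1.17.8) over all 20286 RNAs; the procedure was tested on simulated data. Alternatives were 75th percentile scaling, normexp (offset 50) on median rather than mean signals, the deposited table, other filters, outlier spots kept, each probe on its own, slide as a block, no slide 3, each rat left out, and Student's test of the methods. The methods write the criterion as a log2 fold change above 1.5; it was read as a linear fold. Correlations used 100000 permutations; those with slide means subtracted or without slide 3 were added after seeing the data. Single values used all 252 assignments of rats.

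The RNAs named were the 9 of the RT-qPCR list, those past the adjusted p, the 6 largest in each direction without overlap, the 10 brightest, those past the criteria in every alternative, those detected in 1 group only, and the 3 of widest spread in each group. Members and lists were chosen with earlier results of these data known.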

Additional observations from a re-analysis of the deposited data

Results flagged for a closer look

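Among the MRAK RNAs whose group differences are given, 53 groups of rats were checked for 1 rat far from the others, and 3 had one, where chance gives about 1 in 20 groups. For MRAK014088, NS 7 read 9.92 and the other NS rats 9.30 to 9.46. For MRAK158420, NS 9 read 2.37 and the others 3.25 to 3.55, below the faintest intensity that was well above background on NS 9, 4.28. For MRAK051195, MT 1 read 6.16 and the other MT rats 6.27 to 6.30, a gap of little size within a tight group. Over all 2635 kept MRAK RNAs with complete values the same check picked out 231 in MT rats (8.77%), 184 of them through MT 2, the one MT array on slide 2, and 110 in NS rats (4.17%), 60 of them through NS 7.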

How the results depend on the processing

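The adjusted-p counts of MRAK RNAs were 2 higher and 6 lower. The higher count was 1 with 75th percentile scaling, the deposited table, outlier spots kept or Student's test. It was 0 without a filter (limma, with 542 at P below 0.05), with a random slide block or without slide 3. Counts with a fixed slide block, which rests on 1 MT rat, are not given. The lower count was 19 after normexp, 17 with detection on all 10 arrays, 1 without a filter and 0 with a random slide block or without slide 3. Leaving out each rat gave 0 to 4 higher and 0 to 5 lower, with none in either direction without MT 1, NS 8 or NS 9 (limma, P below 0.05 for 292, 328 and 318); the higher count was also 0 without MT 3, MT 4, MT 5 or NS 6 (where 2, 1, 1 and 4 were lower) and 4 without MT 2 or NS 10, and 3 were lower without NS 7.

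By the fold and P criteria (50 higher, 28 lower), the higher count was 116 with 75th percentile scaling, 10 after normexp and 32 in the deposited table. It was 18 with detection on all 10 arrays, 21 with a random slide block and 26 without slide 3. Leaving out each rat gave 26 to 93 (26, 31 and 30 without NS 9, NS 8 and MT 4, and 82, 90 and 93 without NS 6, NS 7 and NS 10). The lower count was 10 with 75th percentile scaling, 5 after normexp, 83 without a filter and 48 without slide 3; leaving out each rat gave 17 (without NS 8) to 40. The higher share of these calls, 64.1%, was 40.7% without a filter, 41.9% with detection on all 10 arrays, 50% with a random slide block and 35.1% without slide 3. Over all RNAs tested that share, 63.6%, was 45.9%, 54.4%, 50.3% and 52.8% in the same order. Groups without overlap (53 higher, 98 lower) were 28 higher with detection on all 10 arrays, and 137 and 158 without slide 3, where 5 rats face 3; leaving out each rat gave 55 to 106 higher (99, 86 and 106 without MT 2, NS 7 and NS 10) and 98 to 150 lower (147 and 150 without MT 2 and NS 7). The causes were not tested.

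The median log2 difference of 0.01 was 0.17 with 75th percentile scaling (0.07 over all RNAs), −0.03 without a filter, −0.04 with detection on all 10 arrays, and −0.01 to 0.02 when each rat was left out. The 2645 detected probes were 1681 when all 10 arrays were required, and 2585 to 2645 when each rat was left out.

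Of 489 alternative values for 26 named RNAs, 376 kept direction and side of the threshold, 101 lost the adjusted p, 9 gained it and 3 reversed. The reversals were MRAK042323, 1.03, which was −0.08 with a fixed slide block and −0.49 without slide 3, and MRAK015320, 0.74, which was −0.44 without slide 3. All alternatives kept the direction of the 8 RNAs past the adjusted p. No paired analysis was possible because the rats carry different numbers, 1 to 5 and 6 to 10, in the 2 groups. Signal over background limits the dim RNAs: on NS 8 and NS 9 no probe below a log2 intensity of 4.25 was well above background.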
